A study of Homo sapiens with 1 sample.

Results

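Exonic peaks away from promoters were the accessible sites of this ATAC-seq list whose summit lay inside an exon of a protein-coding gene. Their summits were also more than 1 kb from every annotated transcription start site (TSS) and from every end of a protein-coding transcript. In ATAC-seq, the Tn5 transposase cuts open DNA and leaves sequencing adapters there, and a peak is a stretch with more fragments than the genome-wide background. There were 1388 such peaks among the 86239 peaks on chromosomes 1 to 22, or 1.61% (exact 95% interval, 1.53 to 1.70). Of these, 510 had a coding summit, which means that at least 1 annotated transcript translates that base, and 878 had an untranslated one. The untranslated summits comprised 514 in 3′ UTRs, 49 in 5′ UTRs, 2 in bases annotated as both and 313 in exons that belong only to transcripts without a reading frame there, called noncoding isoforms below.

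The cells were 786-O, an established line of human clear cell renal cell carcinoma, and carried an empty vector. They served in the study as the control for cells with raised DPF3a, an isoform of DPF3, which belongs to the SWI/SNF remodeller of chromatin. Whether the control cells were 1 clone or a mixed population is not given in the sources used here, and the DPF3a library is not analysed here. The data were 1 library without a replicate, so each value describes that library, no p-value is given, and all intervals cover counting error only. For the identity of the cells, promoter peaks were present at the renal markers PAX8, PAX2 and EPAS1 and absent at LHX1 and CDH6. They were present at the mesenchymal genes VIM and CDH2, at 0 of 3 leukocyte, 0 of 3 endothelial and 0 of 2 hepatocyte markers, and at both neuronal genes, SNAP25 and SYT1, with folds of 19.6 and 14.9.

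Most regulatory DNA lies between genes or in introns, but exons can hold it too. Within a coding exon, a base can serve the genetic code and a transcription factor at once, so that the triplets and the binding site have to fit the same letters. AP-1, a dimer of FOS and JUN proteins, binds the 7-base site TGAGTCA, read TGACTCA on the other strand, and is a frequent occupant of distal enhancers. CTCF binds a longer motif and shapes chromatin loops.

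Exonic summits with such a motif are printed here because the same bases are exonic sequence and a match to a factor's consensus. Each line has 30 bases of hg38 on the strand of the gene, 5′ to 3′, with the motif in capitals. The 4 coding members of highest fold with an AP-1 site within 50 bp of the summit were in ELAPOR1, a gene of the endosome and lysosome system, EVC, a ciliary gene of Hedgehog signalling, GTF2E1, which encodes a subunit of the general transcription factor TFIIE, and HMGXB3, a gene of the HMG-box family.
ELAPOR1, chr1:109197519-109197548, + strand: attcctgagggTGAGTCAgggttctccaaa
EVC, chr4:5753924-5753953, + strand: gtttctcgaggTGACTCAcatccccagcct
GTF2E1, chr3:120781216-120781245, + strand: agcgagaccagTGAGTCAgatgatgattct
HMGXB3, chr5:150036747-150036776, + strand: attcctgagaaTGAGTCAgagctggctgag

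In ELAPOR1, GTF2E1 and HMGXB3 the first base of the site was codon position 3. The site of EVC was centred 4 bp from the edge of exon 10 and was not wholly inside the exon, although the summit was coding. The untranslated members of highest fold with an AP-1 site were in the last exon of SH3TC2, a gene needed by myelinating Schwann cells, in a noncoding isoform of GYPC, which encodes the red cell membrane protein glycophorin C, and in the last exon of WDR35, which encodes a protein of ciliary transport.
SH3TC2, chr5:149002170-149002199, - strand: ccattccccatcTGACTCAggttacagatc
GYPC, chr2:126658059-126658088, + strand: gttactgcgcgTGAGTCAtgcacagcaatc
WDR35, chr2:19911988-19912017, - strand: gcttgagccagaTGACTCAatcagatgaaa

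CTCF motifs of 4 coding members show that the motif can lie in different codon frames. The first base of the match on the gene strand was codon position 2 in AHSG, the gene of the liver plasma protein fetuin-A. It was position 3 in ASTN1, a gene of neuronal migration, and in PMF1, which encodes a kinetochore protein. Position 3 was also found in AFF4, which encodes the scaffold of the super elongation complex. The matches in ASTN1 and AFF4 have the opposite orientation to those in AHSG and PMF1, so their first base is not the same base of the motif.
AHSG, chr3:186617214-186617243, + strand: gccaagactGCCCCCTGCTGGccccgctga
ASTN1, chr1:176949224-176949253, - strand: gctgtgcctCCAGCAGATGGCgcccttccc
PMF1, chr1:156225590-156225619, + strand: tccccgcctGCCCTCTGGTGGacagtctgt
AFF4, chr5:132883417-132883446, - strand: acagaagatCCACCAGATGGCagccagcta

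The coding member of highest fold had neither motif near its summit. It lay in exon 11 of 22 of ATP6V0A4, the kidney-enriched membrane subunit of the proton pump. Its 30 summit bases are shown without capitals.
ATP6V0A4, chr7:138752682-138752711, - strand: gacgtcacccagcagtgtgtcatcgccgag

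To ask whether exons held more or fewer peaks than the introns around them, summits were counted per Mb of bases that met the same distances. Exonic sequence had 34.2 summits per Mb (32.4 to 36.0) over 40.6 Mb, compared with 30.3 in introns of protein-coding genes and 21.9 in intergenic sequence. The ratio of exonic to intronic density was 1.13 (1.07 to 1.19), but it did not hold at equal GC content, as given below. It came from the untranslated bases, whose ratio was 1.20 (1.12 to 1.28), whereas coding bases had 1.03 (0.938 to 1.12), with 1 inside the interval. The 5′ UTR had 58.0 per Mb (42.9 to 76.7) on 49 summits, leaving aside the few bases annotated as both UTRs, which held 2 summits. The densities of 3′ UTRs, 35.0 per Mb, and of noncoding isoforms, 36.3 per Mb, differed by less than their intervals. Coding summits made up 36.7% of the exonic ones (34.2 to 39.3), while coding bases made up 40.4% of the eligible exonic bases.

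Coding exons are richer in G and C than introns, and intronic peak density rose with GC content, so the comparison was repeated among bases with similar surroundings. At the same GC content, coding sequence had fewer summits than introns. The coding to intronic ratio was 0.700 (0.472 to 1) where the bases up to 50 bp to each side had under 40% GC, 0.779 (0.667 to 0.905) at 40 to 50%, 0.803 (0.690 to 0.930) at 50 to 60%, and 0.525 (0.435 to 0.629) at 60% or more. Over all 4 bins, the 510 coding summits were 0.700 times (0.641 to 0.764) the 728 that the intronic densities would give. Untranslated summits numbered 878 against 799, a ratio of 1.10 (1.03 to 1.18). For all exonic summits the ratio was 0.909 (0.862 to 0.958) at equal GC content, below 1, and 1.02 (0.971 to 1.08) at equal distance to the nearest TSS. A coding ratio of about 1 over all bases thus became a ratio below 1 once GC content was matched, and the untranslated ratio stayed slightly above 1.

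Distance to the nearest start site moved these ratios less evenly. Exonic density was 40.8 per Mb at 1 to 2 kb from a TSS and 29.6 per Mb (20.9 to 40.6) beyond 50 kb, while intronic density went from 41.7 to 18.7. The exonic to intronic ratio was 0.980, 0.941 and 0.988 in the bins up to 10 kb, with intervals that cover 1, then 1.16 (1.05 to 1.28) at 10 to 50 kb and 1.58 (1.11 to 2.17) beyond 50 kb, the last on 38 summits. Coding bases alone were below introns at 2 to 5 kb, with a ratio of 0.836 (0.700 to 0.991), and at 5 to 10 kb, with 0.755 (0.606 to 0.929). They were above introns at 10 to 50 kb, with 1.21 (1.03 to 1.41). Just inside the distance limit, at most 100 bp farther from a TSS than 1 kb, 43 members had a median fold of 7.73 and a range of 5.15 to 34.0. The 54 exonic summits just outside it, at most 100 bp nearer, had a median of 9.79 and a range of 5.15 to 58.7. At transcript ends, the medians were 8.50 for 34 members just inside and 7.73 for 52 exonic summits just outside.

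**Figure D1:**
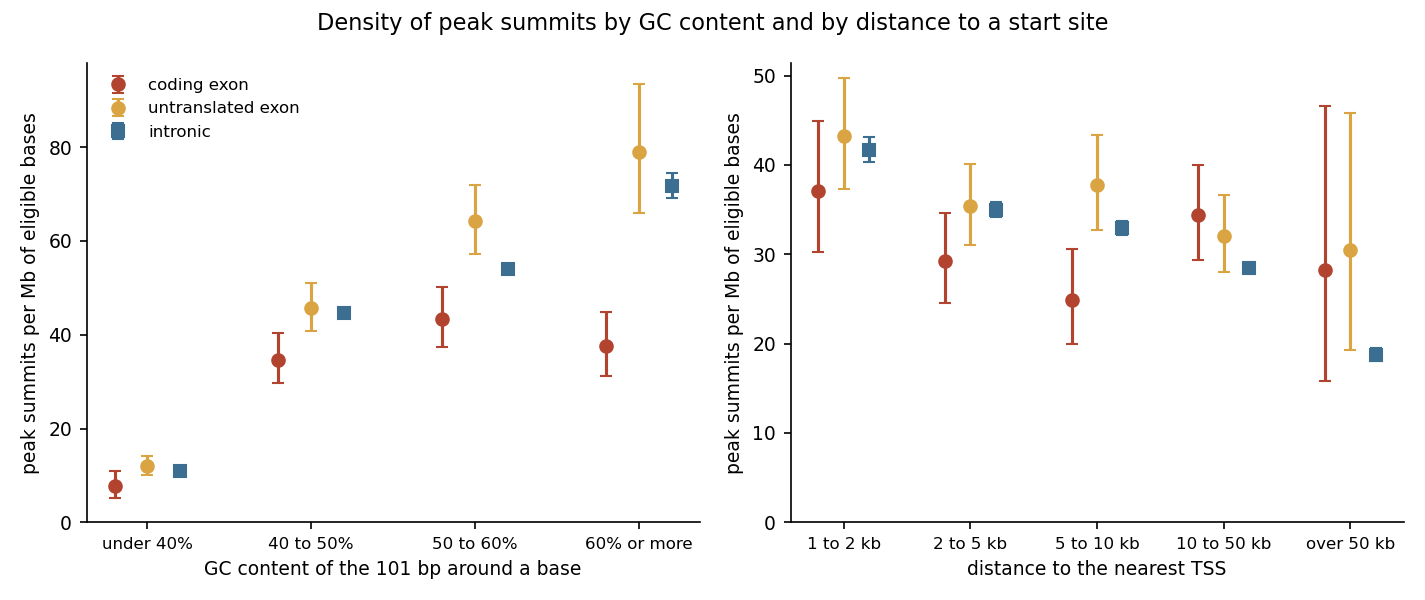
Peak summits per Mb of eligible bases in coding exons, untranslated exons and introns, by GC content of the bases up to 50 bp to each side (left) and by distance to the nearest TSS (right), with exact Poisson 95% intervals as bars. At 60% GC or more the coding density was 37.7 per Mb, the intronic one 71.7 and the untranslated one 78.9, whereas beyond 50 kb from a TSS both exonic classes lay above the intronic 18.7 per Mb.

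Exonic peaks were denser in genes with an open promoter. Exonic density in genes with a promoter peak was 1.35 times (1.17 to 1.55) that in genes without one, 1.37 times for coding and 1.29 times for untranslated bases. In introns the same ratio was 1.89 (1.83 to 1.95), above the interval of the exonic ratio. Even so, 248 members (114 coding and 134 untranslated) lay in genes with no promoter peak.

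Exonic peaks were mostly of moderate height. Fold is the summit pileup, the number of fragments over the summit, plus 1, divided by the genome-wide background pileup plus 1. As the maximum within a peak it is biased upward. Coding members had a median fold of 8.50 (quartiles, 6.18 and 14.3) and untranslated members one of 9.28 (6.70 and 16.5), compared with 9.79 for intronic peaks and 10.8 for all peaks. A fold over 20 was reached by 15.3% of coding members (12.3 to 18.7), 18.1% of untranslated members (15.6 to 20.8) and 20.9% of intronic peaks (20.4 to 21.3). Among all peaks the share was 26.2%, and the peaks within 1 kb of a TSS, which had a median fold of 17, are part of that background. The exonic share of all peaks was 2.18% in the lowest group of folds and 0.916% in the highest of 10 groups. The depth behind many members was low, since 41.4% had a pileup under 15, close to the 39.9% of intronic peaks.

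**Figure D2:**
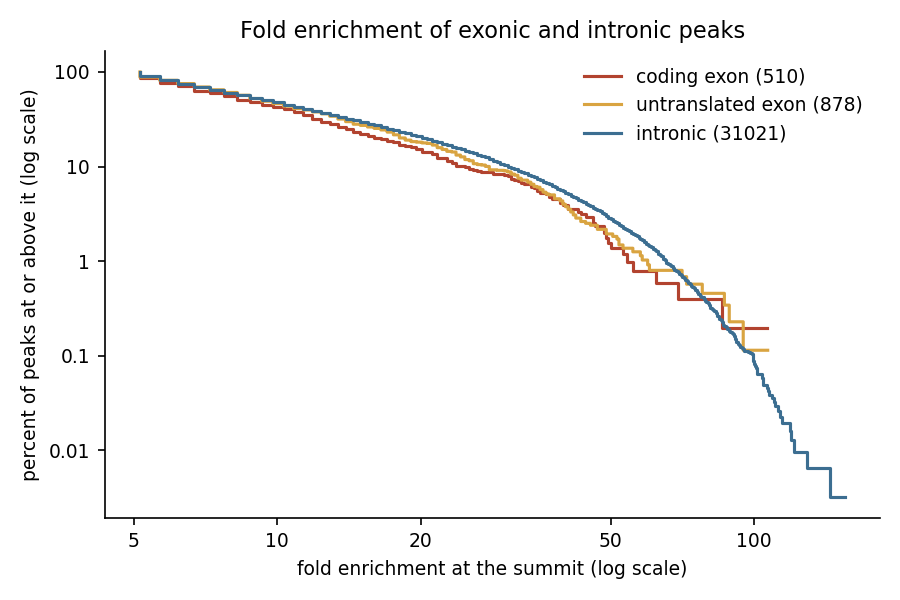
Percent of peaks (log scale) at or above each fold enrichment (log scale) for 510 coding members, 878 untranslated members and 31021 intronic peaks. The coding curve lies under the intronic one over most of its range, with 15.3% against 20.9% of peaks over a fold of 20.

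The coding peaks of highest fold were spread over genes of unlike function. ATP6V0A4 led with a fold of 106 (counting interval, 92.2 to 122) at a pileup of 205, higher than 99.9% of all peaks. The next was in RP1, a photoreceptor gene, with a fold of 85.5 in its last exon of 6165 bp. It was followed by GHR, the growth hormone receptor, with 69.1, by COL14A1, the gene of a fibril-associated collagen, with 62.4 in an exon of 67 bp, and by ANK2, which encodes ankyrin-B, with 55.7 in an exon of 6255 bp. ELAPOR1 had a fold of 54.1. HMGXB3 held 2 of the 12 highest coding peaks, with folds of 53.1 in exon 19 and 48.4 in exon 12 of 20. EVC had 50.0, PCLO, which encodes a scaffold of presynaptic terminals, 49.5, GTF2E1 49.0 and AHSG 48.4. The lowest bound among these 12 peaks was 39.2. The fold intervals from GHR (57.9 to 81.7) downward overlapped one another, so the order of these peaks is not resolved at this depth. The interval of RP1 (73.1 to 99.55) overlapped those of ATP6V0A4 and GHR, so its rank is not resolved either. Of the 12, 9 were in internal exons and 4 had an AP-1 site.

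Among untranslated members, SH3TC2 led with a fold of 107 (92.7 to 122) at a pileup of 206. ABCB8, which encodes a mitochondrial transporter, had 94.8, GYPC 88.6 and GPRIN2, a gene linked to neurite outgrowth, 86.6. Lower folds belonged to PPP1R12B, a regulatory subunit of myosin phosphatase, with 77.8, to NRP2, a co-receptor for semaphorins and VEGF, with 72.1, to WDR35 with 70.6 and to DNAJB6, a co-chaperone, with 60.3. The peaks of SH3TC2, GPRIN2, PPP1R12B, WDR35 and DNAJB6 were in 3′ UTRs, and those of ABCB8, GYPC and NRP2 in noncoding isoforms. Of these 8 peaks, 6 were in the last exon of their transcript. Chromosomes 5, 7 and 8 held 10 of the 20 named peaks, namely 7 of 12 coding and 3 of 8 untranslated, compared with 17.5% of all members. These chromosomes were picked after the values were seen. Among the 50 exonic members of highest fold, chromosomes 5 and 7 held 5 each and chromosome 8 held 6, as did chromosomes 1 and 2. The part of the chromosome in these folds was not tested.

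Coding peaks did not have the shape of their exons. The median exon under a coding summit was 176 bp long and the median peak 440.5 bp wide, and 325 of the 510 peaks (63.7%) covered their whole exon. A median of 48.5% of a coding peak was exonic, although 73 coding peaks (14.3%) lay wholly inside their exon. Both edges of the peak lay within 10 bp of the exon edges for 2 members, in exon 2 of IGSF6 (fold 6.70) and in exon 24 of ATP8B3 (fold 5.15), which were named after their values were seen. With these 2 included, 36 coding peaks shared at least 1 edge with the exon at that tolerance. Internal exons held 435 coding summits (85.3%). In 3′ UTRs the geometry was the reverse, as 478 of 514 summits (93.0%) were in last exons of a median 5014 bp and 467 peaks (90.9%) lay wholly inside the exon.

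The 2 summits annotated as both kinds of UTR were in MTRFR (fold 21.1), a gene of mitochondrial translation, and in CGB7 (fold 8.25), 1 of a cluster of near-identical chorionic gonadotropin genes, so its value is uncertain. They too were named after their values were seen. Only 19 of the 1388 summits lay in exons of more than 1 protein-coding gene, and 22 also lay in an exon of a noncoding gene.

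To see which sequences marked exonic summits, motifs were counted in either orientation up to 50 bp from each summit and in all windows of that length on eligible exonic bases outside peaks. These windows were centred on exonic bases but could run past the exon, so some sites counted were intronic. The median coding summit lay 48 bp from the exon edge. AP-1 sites were present at 54 of 510 coding summits, or 10.6% (8.06 to 13.6), and in 1.19% of coding windows outside peaks, a ratio of 8.91 (6.89 to 11.5). At untranslated summits the share was 15.7% (13.4 to 18.3) and the ratio 11.1 (9.503 to 13.0). Intronic summits had 18.0% (17.6 to 18.4) and a ratio of 13.1 (12.7 to 13.5), so AP-1 sites were less frequent at coding than at intronic summits. The scrambled control TGGACAT was at 2.35% of coding summits against 1.99% of windows and at 0.683% of untranslated summits against 1.32%.

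CTCF motifs were at 13 coding summits (2.55%; 1.36 to 4.32) and 32 untranslated summits (3.65%; 2.51 to 5.11), against 0.0403% and 0.0253% of windows. The ratios were 63.3 (35.1 to 114) and 144 (94.2 to 221). RUNX sites (TGTGGTT) and TEAD sites (ACATTCC or GCATTCC) were each at 3.92% of coding summits, with ratios of 2.40 (1.56 to 3.69) and 1.61 (1.05 to 2.48). At untranslated summits they were at 5.92% and 5.35%. The core of the hypoxia response element (ACGTG or GCGTG), bound by HIF proteins, was at 20% of coding and 14.1% of untranslated summits. Its windows outside peaks had 14.5% and 10.1%, so the ratios were 1.38 (1.16 to 1.64) and 1.40 (1.19 to 1.65), close to the 1.41 of introns.

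Motifs typical of promoters were rare at these summits and in exonic windows outside peaks. The ETS sequence ACCGGAAGT and the NRF1 palindrome were at 0 of 510 coding and 0 of 878 untranslated summits, counts that allow shares of up to 0.721% and 0.419%. Outside peaks, ETS was in 0.0365% of coding and 0.00943% of untranslated windows and NRF1 in 0.00818% and 0.000429%, so a difference was not detectable at this depth. The SP/KLF sequence GGGGCGGGG was at 0 coding summits, against 0.189% of windows, and at 3 untranslated summits (0.342%), against 0.160%, a ratio of 2.14 (0.688 to 6.65). The ZEB and SNAIL E-box CAGGTG was at 11.6% of coding summits and in 11.2% of coding windows, and the HNF1 half-site GTTAAT was at 3.33% against 2.42% for coding bases, a ratio of 1.38 (0.862 to 2.201), and at 3.76% against 4.60% for untranslated bases, a ratio of 0.817 (0.584 to 1.14). Both intervals cover 1.

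The question was then turned around, and each motif site in eligible sequence was asked whether it lay inside any peak. In coding exons, 127 of 1959 AP-1 sites were in a peak, or 6.48% (5.43 to 7.67). The share was 10.1% (9.13 to 11.0) for 3907 untranslated sites and 9.59% (9.45 to 9.74) for intronic sites. An AP-1 site in a coding exon was therefore 0.676 times (0.571 to 0.800) as often in a peak as an intronic one, and 0.645 times (0.532 to 0.781) as often as an untranslated one. For CTCF the contrast among exonic classes was wider. Of 103 coding CTCF sites, 25 were in a peak (24.3%; 16.4 to 33.7), compared with 67 of 133 untranslated sites (50.4%; 41.6 to 59.2) and 33.4% of intronic sites. The coding to untranslated ratio was 0.482 (0.329 to 0.705) and the untranslated to intronic ratio 1.51 (1.27 to 1.80), whereas the coding to intronic ratio, 0.727 (0.515 to 1.03), had an interval that covers 1.

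**Figure D3:**
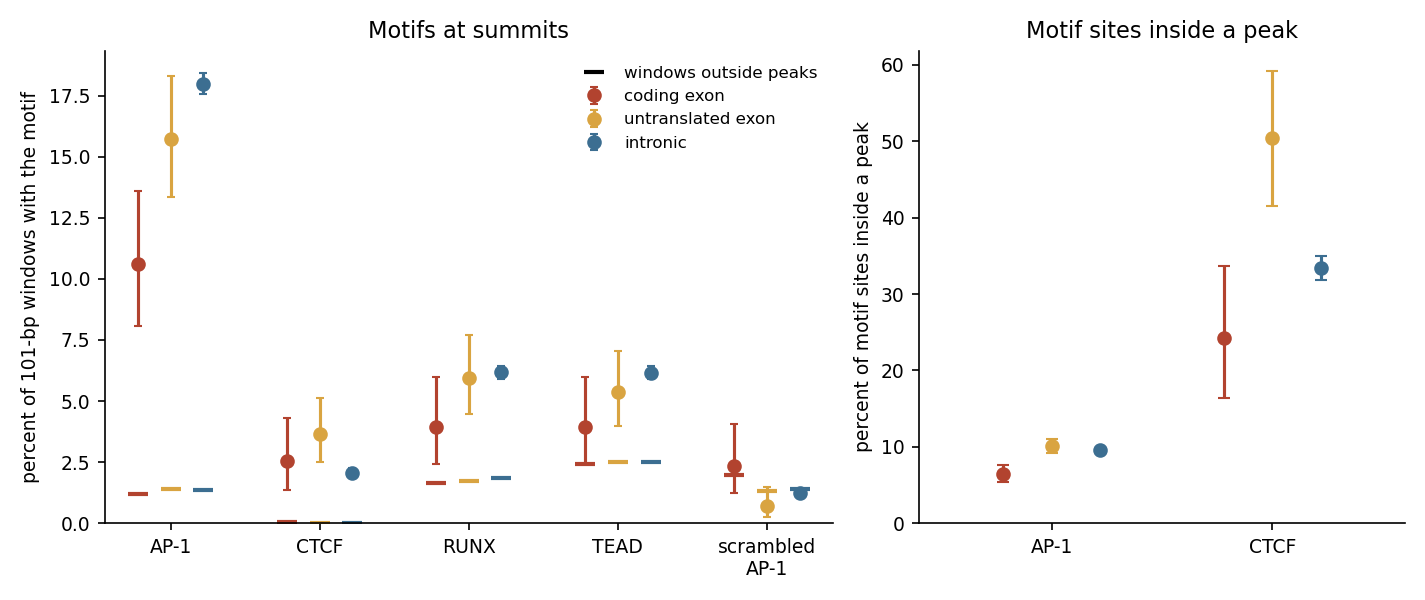
Left, percent of windows, 50 bp to each side, with each motif at coding, untranslated and intronic summits (points) and outside peaks (horizontal marks). Right, percent of AP-1 and CTCF sites that lay inside a peak, with exact 95% intervals as bars in both panels. AP-1 was at 10.6% of coding and 18.0% of intronic summits, and 24.3% of coding against 50.4% of untranslated CTCF sites were in a peak.

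Because both strands of an AP-1 site read TGA at their start, the site cannot begin at codon position 1 of a translated frame without a stop codon. Of 1917 AP-1 sites wholly inside coding bases, 0 began at codon position 1, 774 (40.4%) at position 2 and 1143 (59.6%) at position 3. The share in a peak was 5.81% (4.27 to 7.70) at position 2 and 6.74% (5.35 to 8.35) at position 3, with intervals that overlap. Frame thus sorted where the site occurred in the code, and no difference in accessibility between the frames was detectable at this depth.

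Exonic summits were richer in G and C than the exonic sequence around them. The median GC content was 52.5% at coding summits against 48.5% in coding windows outside peaks, and 49.5% against 41.6% for untranslated bases. In introns the values were 47.5% and 39.6%, so the gap was narrower in coding exons. A CpG-island-like surrounding, defined as 500 bp with over 55% GC and an observed to expected CpG ratio over 0.65, was found at 48 coding summits (9.41%; 7.02 to 12.3) against 3.35% of coding windows. It was found at 21 untranslated summits (2.39%; 1.49 to 3.63) against 0.366% of windows. At intronic summits the share was 0.764%, which makes such surroundings more frequent at coding than at intronic summits, as they also were outside peaks.

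Island-like coding members are shown here by 2 examples, with each CG pair in capitals. DCAF5, an adaptor of a ubiquitin ligase, had a fold of 43.3 in its last exon, with 61.4% GC at the summit, and GFPT2, an enzyme of hexosamine synthesis, a fold of 30.9 in exon 14 of 19, with 66.3% GC. Both folds are well above the median of 8.25 of the 48 island-like coding members. DCAF5 also had an AP-1 site, left in lower case in its line, and was 1 of 2 coding members with both features. Its CpG ratio of 0.653 only just passed the limit.
DCAF5, chr14:69055306-69055335, - strand: agCGagCGctcaggctacactgactcagag
GFPT2, chr5:180313874-180313903, - strand: gggCGtcaccaacacCGtgggcagctccat

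Sites with AP-1 were taller than the others. The 192 members with an AP-1 site had a median fold of 13.1 (quartiles, 7.21 and 24.7), and the 1089 members (78.5%) with no AP-1 site, CTCF motif or island-like surrounding had one of 8.76 (6.18 and 14.4). The medians were 8.76 for 45 members with a CTCF motif and 9.79 for 69 island-like members. The quartile ranges of these groups overlapped.

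At the level of genes, 1252 of the 16172 protein-coding genes with eligible exonic sequence had an exonic peak, or 7.74% (7.33 to 8.16). Long exonic sequence gave more chances, and the share was 1.66% for genes with under 1 kb of it, 6.70% at 1 to 3 kb, 12.8% at 3 to 6 kb and 23.9% at 6 kb or more. A single exonic peak was present in 1116 genes, 2 in 121 genes and 3 or more in 15 genes. SH3TC2 had 8, AVL9, a gene of the late secretory pathway, and CNKSR3, a scaffold of sodium channel control in kidney, had 4 each, and ATP8A2, a phospholipid flippase gene, and CRYBG1, a gene of the crystallin superfamily, had 3 each, both tied with other genes and taken in alphabetical order. The folds were 8.25 to 22.2 in AVL9, 5.15 to 12.4 in CNKSR3, 5.67 to 44.3 in ATP8A2 and 5.67 to 37.6 in CRYBG1. In ATP8A2, which had no promoter peak, folds of 44.3, 5.67 and 38.1 stood in 1 last exon of 5964 bp.

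SH3TC2 had the most members. Its canonical transcript spans 80.9 kb and ends with an exon of 22.8 kb, which held 6 of the 8 members, with folds of 107, 10.8, 12.9, 5.15, 38.1 and 25.3 in the direction of transcription. The other members, with folds of 7.21 and 6.18, lay in exons of other transcripts that fall in introns of the canonical one. Another 3 peaks in the transcript were intronic and 3 were within 1 kb of a TSS, the highest of these 6 with a fold of 26.8.

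**Figure D4:**
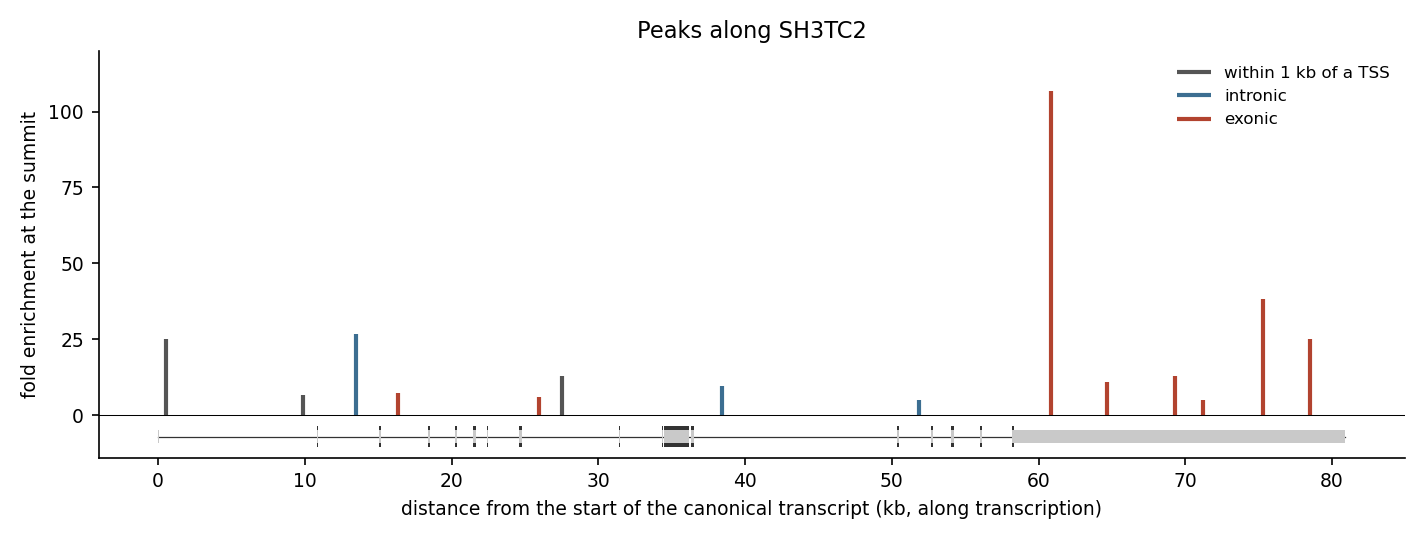
Fold enrichment of the 14 peaks along the canonical SH3TC2 transcript, by distance from its start in kb; grey boxes are exons and black boxes coding sequence. Of the 8 exonic members (red), 6 stand over the long last exon, the highest with a fold of 107, and the other peaks are intronic (blue) or near a TSS (dark grey).

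Gene lists were then read against the background of 7.74% of genes and 34.2 exonic peaks per Mb. Of the SWI/SNF subunits and DPF3a partners, 4 of 22 had an exonic peak (18.2%; 5.19 to 40.3), at 53.1 per Mb (17.2 to 124). They were ARID1A (39.2) and ARID1B (11.3), which encode DNA-binding subunits, SMARCC1 (7.21), a core subunit, and DPF3 itself, each with its highest fold in parentheses. The DPF3 peak lay at chr14:72615499-72615893 in the last exon, in the 3′ UTR, with a fold of 7.21 (4.08 to 12.0) on a pileup of 13. None of the 8 cell movement genes named by the study had one, and their 0.0283 Mb of eligible sequence allowed up to 131 per Mb.

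Among giant cytoskeletal linker and adhesion genes, 13 of 46 had an exonic peak (28.3%; 16.0 to 43.5), at 43.5 per Mb (26.2 to 67.9). Examples with their highest folds were 16.0 in MACF1, which links microtubules and actin, 14.4 in NAV1, a microtubule-binding neuron navigator, and 12.9 in MYH9, a non-muscle myosin. Their share stood above the background for genes and their density had an interval that covers it, as these genes had a median of 7387 eligible bases. Extracellular matrix and laminin genes had 6 of 49 at 21.1 per Mb (7.74 to 45.9), among them LAMA1 (17), FN1 (14.9), AGRN (11.9) and LTBP1 (9.28). COL14A1, described above, was not in this list. Receptor tyrosine kinases had 5 of 53 at 21.0 per Mb (6.80 to 48.9), among them FGFR2 (36.1, in a 5′ UTR), NTRK3 (21.1), ALK (6.70) and NTRK2 (5.67). Chromatin regulators had 11 of 78 at 28.3 per Mb (14.6 to 49.4), among them ARID1A, KDM2B (24.7) and DNMT3A (17.5).

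The listed homeobox and developmental factors stood higher in density. Of these, 10 of 81 genes had an exonic peak (12.3%; 6.08 to 21.5), with an interval that covers the background for genes. Their 12 peaks gave 74.9 per Mb (38.7 to 131), with an interval above the background. The densities of the lists were not matched for GC content. Within the list, PAX8 (46.9), a regulator of kidney development, MEIS1 (14.9), HOXB3 (14.4) and ZFHX3 (12.4) are examples, and 2 of the 12 peaks were coding. The list does not hold every homeobox gene, and the coding peaks of SHOX2 (23.2) and EVX2 (22.7), named after their values were seen, are outside it. Neuronal channel and receptor genes, taken as a contrast, had 12 of 55 (21.8%) at 36.4 per Mb (20.8 to 59.1), with PCLO (49.5), the calcium channel genes CACNA1C (38.1) and CACNA1E (31.4), and NRXN2 (27.3). Their density was close to the background.

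Zinc finger genes were at the other end. Only 13 of 468 genes named ZNF had an exonic peak, or 2.78% (1.49 to 4.70), at 11.0 per Mb (5.84 to 18.7). A promoter peak was present at 83.8% of the ZNF genes, compared with 69.7% of all protein-coding genes with eligible exonic sequence. The ZNF genes whose exonic peaks had the highest folds were ZNF250 (41.7), ZNF7 (41.2), ZNF800 (31.95) and ZNF709 (25.8). The clustered protocadherins, cell adhesion genes of neurons, had an exonic peak in 0 of 47 genes, and 19.1% of them had a promoter peak. Their 0.0739 Mb allowed up to 49.9 per Mb, an interval that covers the background.

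**Figure D5:**
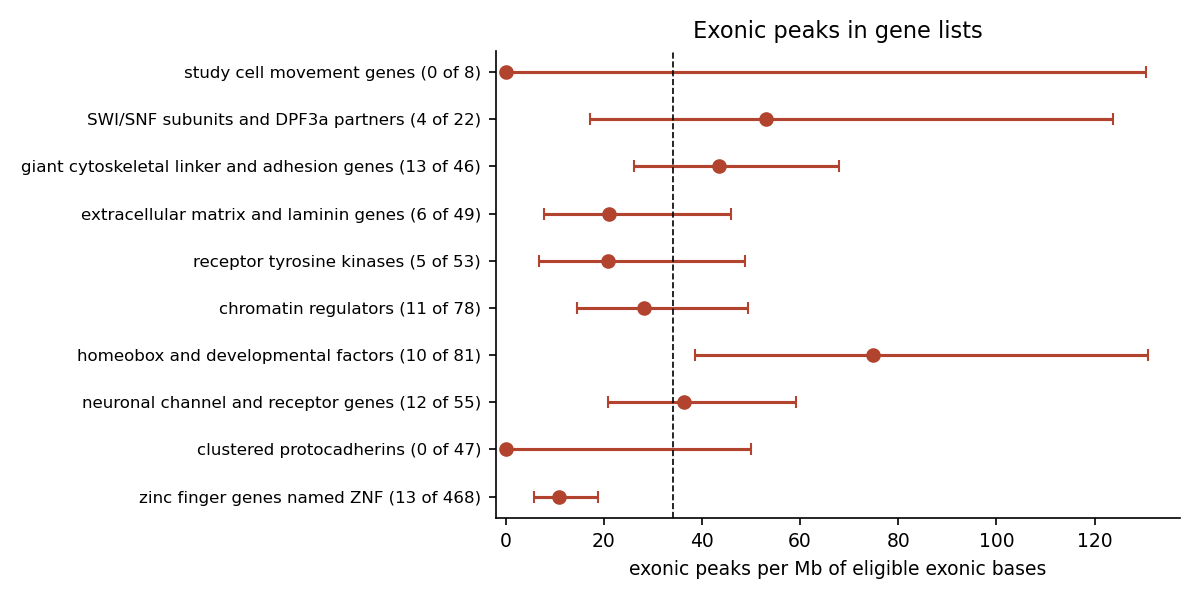
Exonic peaks per Mb of eligible exonic bases in 10 gene lists, with exact Poisson 95% intervals as bars; the count of genes with an exonic peak stands beside each name and the dashed line marks the 34.2 per Mb of all genes. The ZNF interval (5.84 to 18.7) lies below the line, the homeobox and developmental interval (38.7 to 131) above it, and the others cross it.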

How the data were processed

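ATAC-seq of 1 library, 786-O cells with an empty vector, was analysed. The authors used fastp to trim reads and Bowtie2 2.3.4.3 to align them to hg38, discarded mitochondrial, poorly mapped and duplicate reads, and ran MACS2 2.2.6 with a genome-wide background. No shift of reads for Tn5 is stated, so summits may be some bases off. The deposited ratio is the fold of the summit pileup over the background, with 1 added to each. The deposited −log10 p-value and −log10 q-value are those of the caller. The score deposited with them is the −log10 q-value times 10, cut to a whole number. For the 86239 peaks on chromosomes 1 to 22, every fold followed from a whole pileup, 9 to 300, with a background pileup of 0.941. The whole list has 88676 peaks, and the pileup is the only depth known. Peak names have a wild-type tag, but the label was followed.

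Summits were placed with GENCODE release 44 on hg38. Coding in any transcript took precedence over untranslated, and intronic and intergenic summits met the same distances. Exon numbers refer to the canonical transcript where it holds the summit. Shares have exact Clopper-Pearson intervals, densities exact Poisson intervals, their ratios conditional binomial intervals, and ratios of shares log-normal ones, all at 95%. Of intronic windows outside peaks, 1 in 20 was kept. What a count of 0 allows is the upper bound of its exact interval. Named were the 12 coding and 8 untranslated members of highest fold, 5 genes with most members, with ties in alphabetical order, and up to 4 genes per list; some genes of the lists are not reported here. Printed sequences leave out chromosome 8. Members, lists and motifs were chosen with earlier results of these data known. Computations used Python 3.11.15 with pandas 2.3.3, scipy 1.17.1, numpy 2.4.6 and, for plots, matplotlib 3.10.9. Placement of summits, the motif search and the ratio intervals were tested on simulated data.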

Additional observations from a re-analysis of the deposited data

How the results depend on the processing

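No paired analysis was possible because the data hold a single library. Of 70 recomputed values over 10 results, 42 moved by less than their interval, 28 moved further and 0 reversed. Only the ratios of density and of median fold have a value of 1 to cross, so only they could reverse. The count of 0 therefore says nothing about the number of members, the shares or the median GC content. All shares of genes in this section are out of the 16172 genes with eligible exonic sequence at 1 kb over all transcripts, whatever the setting. With a score above 100, 872 members and 5.05% of genes remained. With a score above 200 there were 526 members, 33.8% of them coding, in 3.14% of genes, with AP-1 at 17.4% of coding and 22.7% of untranslated summits and a density ratio of 1.05, an interval that covers 1. A distance of 500 bp gave 2067 members, a number within the set factor, and 33.4% coding. It also gave a ratio of median folds to intronic peaks of 1 in place of 0.947, 6.29% island-like and 10.9% of genes. A distance of 2 kb gave 812 members, 45.1% coding, AP-1 at 19.3% of untranslated summits, 3.08% island-like and 4.57% of genes. Exons of canonical transcripts alone gave 897 members, 54.3% coding, a density ratio of 1.06 with an interval that covers 1, 6.58% island-like and 5.06% of genes. Counting bases of both kinds as untranslated gave 28.9% coding. Within 25 bp of the summit, AP-1 was at 4.71% of coding and 7.40% of untranslated summits and CTCF at 0.980% of coding ones. Within 100 bp, AP-1 was at 19.6% and 26.8%. Fewer members, or fewer or more bases searched, follow from these settings themselves. The cause of the other shifts was not tested. An alternative restricted to sequence outside repeats was not run, since the reference used here marks no repeats. A pileup under 15 at 41.4% of members limits the precision of their folds.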

Other observations

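Exonic peaks were also compared between chromosomes. Their density ranged from 20.7 per Mb of eligible exonic bases on chromosome 11 to 45.9 per Mb on chromosome 7. CUBN, the gene of the proximal tubule receptor cubilin, was chosen after its values were seen. It held 3 exonic peaks, with folds of 18.0 in coding exon 66, 6.70 in coding exon 10 and 12.4 in an exon of a noncoding isoform, the last 2 with an AP-1 site within 50 bp of the summit.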
